A study of Bos grunniens with 18 samples.

Results

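Expression of 173 genes was compared between the ovaries of yaks (Bos grunniens) in estrus (YO-F) and in pregnancy (YO-P), the comparison written as YO-FvsP. The genes were all those with values in the part of the expression table analysed here, and 130 of them, whose FPKM averaged 0.1 or more across the 9 ovary libraries, entered the fit. FPKM is the number of sequenced fragments of a gene scaled to its exon length and to the mapped reads of the library, so it can be compared between genes of different length, but it holds no counts, and the depth behind a single value is unknown. Each stage had 3 libraries of polyadenylated RNA from healthy 6-year-old yaks of one farm, untreated and slaughtered in August (estrus) or December (pregnancy), and 3 anestrus libraries (YO-A, April) are given as the non-pregnant, non-cycling background. Each stage was sampled in 1 month, so stage and season cannot be told apart. The labels speak of 3 yaks without tying single libraries to animals. The limma p-values set the difference between stages against the spread of these samples within stages, with anestrus included. Whole ovary pieces were sequenced, and in such bulk tissue fewer cells of a type and less RNA per cell cannot be told apart.

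In estrus the ovary carries growing and preovulatory follicles, in which granulosa and theca cells make estrogens, and ovulation opens the follicle wall through proteases and prostaglandins. In pregnancy a corpus luteum, a dense and well vascularised body of steroid-producing cells with resident immune cells, keeps progesterone high, and follicles no longer reach ovulation. The study also reported a corpus rubrum on most estrus ovaries and a corpus luteum on individual ones. A corpus luteum was therefore not confined to pregnancy, and which structures the sequenced pieces held is not given. In ruminants the early conceptus also signals to the mother with an interferon. The markers that define these cells could not be checked here, since 0 of 64 marker genes of granulosa, theca, luteal cells and oocytes were among the 173 genes, and the labels of the tissue were taken as given. Of the 173 genes, 135 are from chromosome 1 and the rest from chromosomes 2 (19 genes), 3 (16) and 4 (3), and the counts describe these genes and not the ovary transcriptome. Genes without a symbol in the table are named by their Ensembl identifier, and coordinates are those of the authors' table.

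The estrus library YO-F2 lay apart and is treated first, because it enters the estrus group. Across the 130 genes, its log2 values had Pearson correlations of 0.777 to 0.804 with the pregnancy libraries and of 0.804 to 0.842 with the other estrus libraries, whereas YO-F1 and YO-F3 correlated at 0.935 with each other and at 0.927 to 0.965 with the pregnancy libraries. These are correlations across genes, which are not replicates. Compared with the other 5 estrus and pregnancy libraries, YO-F2 was more than 1 log2 unit above all of them in 13 genes and below all of them in 20. The same count was 5 genes for YO-F1, 2 for YO-F3 and 1 to 4 for each pregnancy library, each set against the other libraries without YO-F2. The FPKM of the 173 genes summed to 2923 in YO-F2 and to 2520 to 2970 in the other libraries. The study left YO-F2 out. The values below are therefore from YO-F1 and YO-F3 against the 3 pregnancy libraries, with the anestrus libraries in the same fit, and values with YO-F2 are given beside them, for the genes with p of 0.05 or more where they differ by over 1.5 times or turn sign.

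Most of the 130 genes differed little between estrus and pregnancy. The median log2 fold change, estrus minus pregnancy on log2(FPKM + 0.1), was 0.07, with the quartiles at -0.17 and 0.26, and the median absolute value was 0.25. This scale understates the change of genes with low FPKM. In estrus 74 genes were higher and 55 lower. This split depended on scaling. With libraries scaled by median ratios 62 were higher and 67 lower, and with quantile normalization 71 and 58. With YO-F2 the median was -0.01, the quartiles widened to -0.50 and 0.32, and 35 genes turned their sign, none of them with p under 0.05 in the fit without it. The precision depended on the level. The median standard error was 0.85 for the 25 genes at an average FPKM of 0.1 to 1, 0.34 for 52 genes at 1 to 10, 0.18 for 48 genes at 10 to 100 and 0.16 for 5 genes above 100. Half-widths of the 95% interval were 1.93, 0.78, 0.42 and 0.37 on the log2 scale, against 1.00 for a 2-fold difference. With YO-F2 the half-width at 1 to 10 was 1.11.

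No gene passed Benjamini-Hochberg adjustment over the 130 genes (limma, smallest adjusted p = 0.123 without YO-F2 and 0.122 with it). The standard of the study asks for a log2 fold change of 1 or more in either direction with an unadjusted p under 0.05. By it 3 genes were down-regulated in estrus (2.31% of the genes tested) and 0 up-regulated. When fold changes of any size were allowed, 12 genes had an unadjusted p under 0.05 (9.23%), of which 8 were higher (6.15%) and 4 lower in estrus (3.08%). The 8 higher genes had log2 fold changes of 0.25 to 0.82 and a mean FPKM of 3.83 to 191, and the 4 lower genes were expressed at 0.727 to 1.77. When libraries were scaled by median ratios, which shifted the median of all genes by -0.09, the split was 4 higher and 6 lower. With YO-F2, 5 genes met the standard, all lower (3.85%), and 14 had p under 0.05 (10.8%), 9 of them higher (6.92%) and 5 lower (3.85%) in estrus, of which 10 were among the 12. In 19 genes (14.6%) the 3 estrus libraries did not overlap with the 3 pregnancy libraries, and 14 of these were higher in estrus (10.8%) and 5 lower (3.85%). Without YO-F2, when 2 libraries faced 3, it was 35 genes (26.9%), 26 of them higher (20.0%) and 9 lower (6.92%). These counts used FPKM as listed and were not repeated after scaling. Median-ratio scaling divides YO-F1 by 1.093 and YO-F3 by 1.046, but the pregnancy libraries by 0.9894 to 1.018. Some genes also separate without any difference between stages, and the counts were not tested against that share. An exact permutation test of a single gene, two-sided, cannot give a p below 0.1 in either design.

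**Figure D1:**
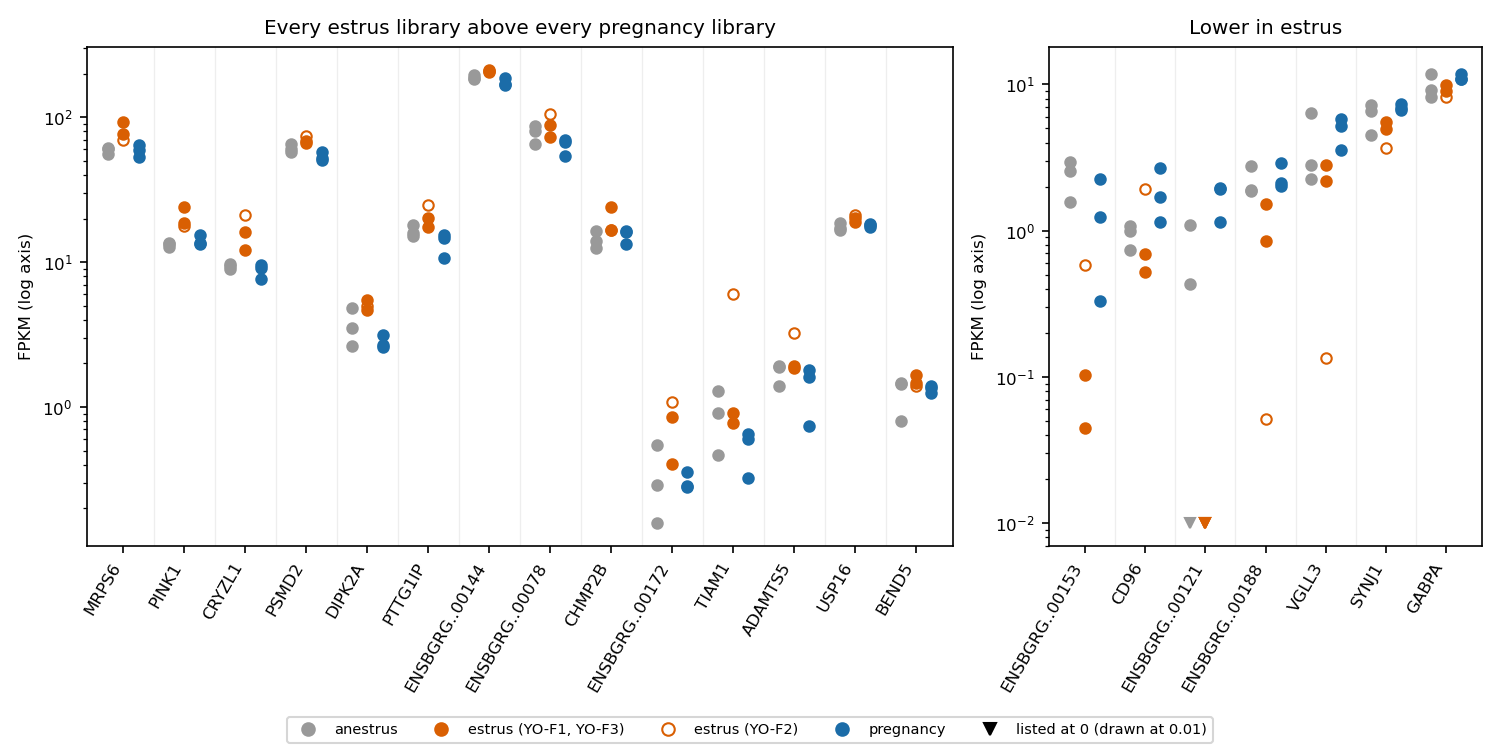
FPKM of single libraries (log axis) for genes whose 3 estrus libraries all lay above the 3 pregnancy libraries (left) and for genes lower in estrus, namely those that met the standard of the study or did not overlap (right). Gray points are anestrus, orange estrus, with YO-F2 open, and blue pregnancy, and triangles mark values listed at 0. The 14 genes on the left differ by less than the range of levels between genes, while the open YO-F2 point lies far from the other estrus points for TIAM1, VGLL3 and ENSBGRG00000000188.

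MRPS6 and PINK1 were the 2 genes of the mitochondrial lists with p under 0.05, and both were higher in estrus. MRPS6 was 1 of 2 tested in the list of respiratory chain and ribosome, and PINK1 the only tested member of the mitophagy list. Over all 130 genes, 6.15% were higher with p under 0.05. With so few members tested, the values describe single genes and not a pathway. MRPS6, a protein of the small subunit of the mitochondrial ribosome (ENSBGRG00000000146, chromosome 1, 37787538 to 37858026), had an FPKM of 92.9, 69.4 and 77.0 in YO-F1, YO-F2 and YO-F3 and of 59.7, 64.7 and 53.3 in pregnancy. The stages did not overlap, and the anestrus libraries, at 55.4 to 61.1, lay below all estrus libraries too. Its log2 fold change was 0.52 (95% interval 0.21 to 0.82, limma, adjusted p = 0.123), and 0.42 with YO-F2. Its unadjusted p was under 0.05 in 19 of 19 alternatives with a test of their own. MRPL39, of the large subunit of the same ribosome, had overlapping values, with 18.5, 16.9 and 16.8 in estrus and 17.3, 15.6 and 16.3 in pregnancy (log2 fold change 0.10, interval -0.20 to 0.40).

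PINK1, the kinase that marks damaged mitochondria for removal by mitophagy (ENSBGRG00000000185, chromosome 2, 4785163 to 4907008), had 23.9, 17.8 and 18.7 in estrus and 13.3, 15.3 and 13.6 in pregnancy. Again every estrus library was above every pregnancy library, and anestrus, at 12.7 to 13.5, was at the level of pregnancy or just below it. PINK1 had a log2 fold change of 0.58 (interval 0.23 to 0.94, limma, adjusted p = 0.123), and 0.50 with YO-F2. Without YO-F1, the highest library, it was 0.41 and the unadjusted p was above 0.05. The span of PINK1 overlaps DDOST, KIF17 and SH2D5 on the opposite strand. The library kit keeps strand, but whether the quantification used it is not given in the sources used here. KIF17, a kinesin motor of cilia and dendrites, shares 67487 bases with PINK1 and had 0.691, 26.8 and 1.31 in estrus and 0.710, 1.47 and 0.840 in pregnancy (-0.01, and 1.55 with YO-F2). KIF17 was therefore high in YO-F2 alone. Whether reads of either gene were assigned to the other was not tested.

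CRYZL1, a protein related to quinone oxidoreductases (ENSBGRG00000000142, chromosome 1, 37242775 to 37279040), had 16.2, 21.1 and 12.2 in estrus against 7.64, 9.04 and 9.50 in pregnancy and 8.98 to 9.78 in anestrus. The stages did not overlap, and the log2 fold change was 0.69 (interval 0.27 to 1.11, limma, adjusted p = 0.123), or 0.88 with YO-F2. Without YO-F1 it was 0.49 and the unadjusted p was above 0.05. SOD1, the cytosolic superoxide dismutase and the one antioxidant enzyme of the list tested, had 102, 135 and 100.0 in estrus and 88.7, 106 and 91.2 in pregnancy, which overlapped (log2 fold change 0.09, interval -0.18 to 0.35, and 0.23 with YO-F2). Its sign turned to -0.01 under either of the other scalings.

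PSMD2, a subunit of the proteasome's regulatory particle that takes part in substrate recognition (ENSBGRG00000000173, chromosome 1, 90221538 to 90230690), had 66.3, 74.8 and 69.0 in estrus and 57.9, 50.5 and 52.5 in pregnancy. The groups did not overlap, although anestrus, at 57.5 to 65.8, reached close to estrus. Its log2 fold change was 0.34 (interval 0.07 to 0.60, limma, adjusted p = 0.348). With YO-F2 it was 0.38. The unadjusted p rose above 0.05 in 7 of 19 alternatives, namely median-ratio scaling (0.24), quantile normalization (0.22), moderation without a trend, the replicate block, and leaving out YO-F3 (0.31), YO-P2 (0.29) or YO-P3 (0.32). Of 6 genes of protein turnover tested, 4 were above and 2 below zero, with a median log2 fold change of 0.09 against 0.07 over all genes, and PSMD2 alone had p under 0.05. USP16, a deubiquitinase that acts on histones, did not overlap between the stages (20.2, 21.3 and 19.0 in estrus, 17.5, 17.9 and 18.3 in pregnancy), but its log2 fold change was 0.13 with an interval of -0.15 to 0.42. CHMP2B, a part of the machinery that sorts membrane proteins into vesicles for lysosomes, had 24.2, 16.6 and 16.7 in estrus and 16.4, 13.3 and 16.1 in pregnancy, where only YO-F1 stood clear (log2 fold change 0.40, interval -0.06 to 0.86).

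DIPK2A, a kinase-like protein of the secretory pathway (ENSBGRG00000000180, chromosome 1, 135939807 to 135960567), had 4.64, 5.01 and 5.44 in estrus and 2.67, 2.60 and 3.14 in pregnancy. It had the largest log2 fold change of the genes with p under 0.05 that were higher in estrus, 0.82 (interval 0.15 to 1.50, limma, adjusted p = 0.367), and the value was also 0.82 with YO-F2. Anestrus spread from 2.64 to 4.85, from the level of pregnancy to that of estrus. Leaving out YO-F3 gave 0.71, leaving out YO-P1 0.79 and leaving out YO-P2 0.78, each with an unadjusted p above 0.05.

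PTTG1IP, which binds the mitotic regulator securin (ENSBGRG00000000193, chromosome 1, 157943131 to 157962527), had 20.2, 24.7 and 17.4 in estrus and 15.3, 10.7 and 14.7 in pregnancy. The groups did not overlap, with a log2 fold change of 0.49 (interval 0.06 to 0.91, limma, adjusted p = 0.407) and of 0.62 with YO-F2. The value was 0.32 without YO-P2, the lowest library, and 0.38 without YO-F1, and in both fits the unadjusted p was above 0.05. The same held for median-ratio scaling (0.39), the fit of both stages alone, moderation without a trend and the replicate block (0.44). ENSBGRG00000000144 (chromosome 1, 37566981 to 37578576), among the most highly expressed of the 173 genes, had 210.1, 213 and 204 in estrus, 186, 170.3 and 167 in pregnancy and 185 to 197 in anestrus. All estrus libraries were thus the highest of the 9. The difference was small, 0.25 (interval 0.01 to 0.48, limma, adjusted p = 0.515), and turned to -0.03 with quantile normalization. The unadjusted p stayed under 0.05 in 7 of 19 alternatives.

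All 6 tested genes of the list named RNA processing and translation were above zero in estrus, at 0.16 to 0.64 with a median of 0.33. The list also holds genes with other roles, among them DONSON and GART, so the values were not read as a result about RNA processing. Of the 6, 1 had p under 0.05. Over all 130 genes, 74 were above zero (62 with median-ratio scaling) and 6.15% were higher with p under 0.05. With YO-F2, 5 of the 6 list members were above and 1 below zero, with a median of 0.25, and 0 had p under 0.05. The gene with p under 0.05, DONSON, which stabilises replication forks (ENSBGRG00000000141, chromosome 1, 37231178 to 37242874), had 6.70, 5.71 and 7.87 in estrus and 5.09, 4.95 and 5.72 in pregnancy. YO-F2 fell within the pregnancy range, and the log2 fold change was 0.46 (interval 0.00 to 0.92, limma, adjusted p = 0.535) without YO-F2 and 0.35 (adjusted p = 0.512) with it. The unadjusted p stayed under 0.05 in 5 of 19 alternatives, and leaving out any single library of estrus or pregnancy raised it above 0.05, at 0.35 without YO-F3 and 0.58 without YO-F1. DONSON shares 100 bases with CRYZL1 on the same strand, and SON and then GART lie on its other side. GART, an enzyme of purine synthesis, had 10.6, 12.3 and 12.2 in estrus and 10.9, 6.89 and 8.54 in pregnancy (0.40, interval -0.10 to 0.89). SON, a splicing cofactor, had 42.6, 37.5 and 41.1 against 38.0, 33.7 and 37.4 (0.21, interval -0.05 to 0.46).

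**Figure D2:**
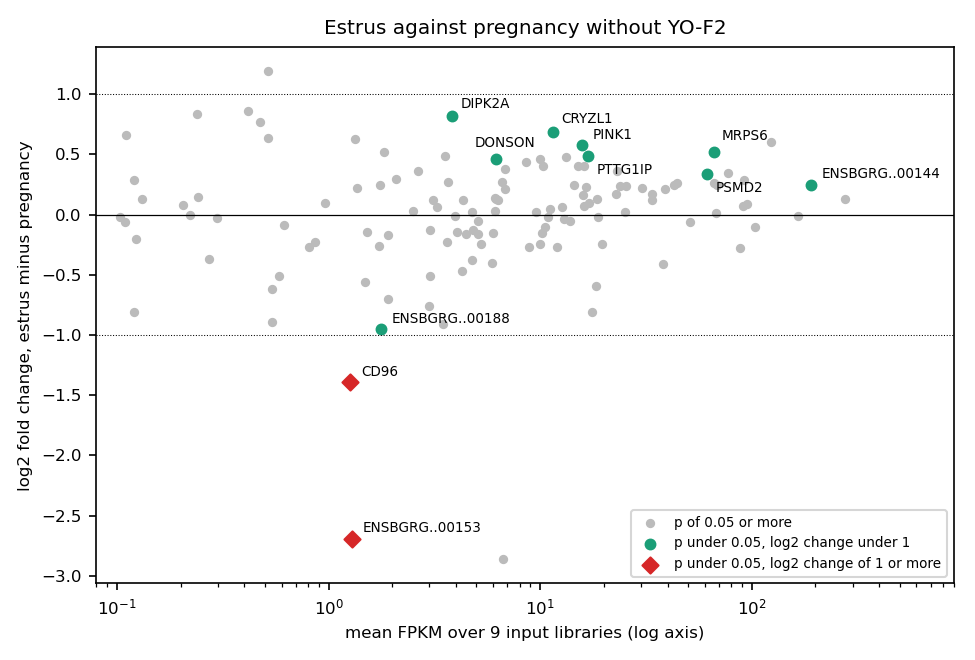
Log2 fold change of estrus (YO-F1, YO-F3) minus pregnancy against the mean FPKM over 9 libraries (log axis), 1 point per gene tested. ENSBGRG00000000121, listed at 0 in estrus, is not drawn. Green points have p under 0.05 with a change under 1 and red diamonds meet the standard of the study. The green points lie above zero at higher levels, except ENSBGRG00000000188, and both red diamonds lie near an FPKM of 1.

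The 3 genes that met the standard were expressed at low levels. CD96, a receptor of T cells and natural killer cells that binds nectin-like proteins (ENSBGRG00000000198, chromosome 1, 60852787 to 60961654), had 0.525 and 0.688 in YO-F1 and YO-F3 and 1.70, 1.15 and 2.67 in pregnancy, whereas YO-F2 had 1.91, within the pregnancy range. Anestrus, at 0.732 to 1.07, lay between. CD96 had a log2 fold change of -1.39 (interval -2.39 to -0.39, limma, adjusted p = 0.255), and with YO-F2 it was -0.89 (adjusted p = 0.512) and no longer met the standard. CD96 also missed the standard without YO-F1 (-1.23) and with quantile normalization (-0.82), where the unadjusted p was above 0.05, and with a pseudocount of 1 (-0.79). CD96 shares 657 bases with ZBED2 on the opposite strand. CD84, an adhesion receptor of the SLAM family on macrophages, platelets and lymphocytes, was the other immune surface receptor tested. It had 2.52, 3.65 and 2.29 in estrus and 6.35, 2.87 and 3.85 in pregnancy, so YO-F2 overlapped with pregnancy and the others did not (log2 fold change -0.76, interval -1.93 to 0.41, and -0.56 with YO-F2). None of the 18 genes of the T cell list was in the table, and of the 16 of the macrophage list CD84 alone was, so the part of cell numbers in these values was not tested. ITGB2, the common beta chain of the leukocyte integrins, varied within both stages, with 10.9, 9.17 and 3.93 in estrus and 10.5, 3.33 and 6.29 in pregnancy (0.12, and 0.28 with YO-F2).

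ENSBGRG00000000153, a gene of 393 bases on chromosome 1 (38262094 to 38262486), had 0.0445, 0.580 and 0.103 in estrus and 0.332, 2.25 and 1.23 in pregnancy. Anestrus was higher still, at 1.58 to 2.93, and YO-F2 exceeded the lowest pregnancy library. The log2 fold change was -2.69 (interval -4.25 to -1.13, limma, adjusted p = 0.123) and -2.03 with YO-F2. The unadjusted p was under 0.05 in 19 of 19 alternatives. The value ranged from -3.65 to -0.99, the smallest with a pseudocount of 1. The number of fragments behind such low values is not known. In pregnancy, ENSBGRG00000000121 (35817746 to 35833047 of chromosome 1) had 1.14, 1.95 and 1.93, and each estrus library listed it at 0. Anestrus had 0.432, 1.09 and 0, so a value of 0 was not particular to estrus. No fold is given against values of 0. Its adjusted p was 0.123 (limma), and 0.122 with YO-F2. The estrus values entered the fit as the pseudocount alone, with no spread between them, and an exact 0 may be a failed estimate.

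ENSBGRG00000000188 (chromosome 1, 168207158 to 168245909) had 0.854, 0.0516 and 1.51 in estrus, 2.89, 2.01 and 2.10 in pregnancy and 1.87 to 2.78 in anestrus. Every estrus library was below every other library, and YO-F2 was the lowest. Its log2 fold change was -0.95 (interval -1.80 to -0.11, limma, adjusted p = 0.407), just short of the standard, and -1.96 with YO-F2, which met it. It was -0.57 without YO-F1 and -0.80 without YO-P1, both with an unadjusted p above 0.05, which was also above 0.05 with quantile normalization (-0.79) and the replicate block (-0.91).

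Among transcription factors and cofactors, 2 of 4 tested were above and 2 below zero, with a median of -0.09, and none had p under 0.05 without YO-F2. With YO-F2 all 4 were below zero, with a median of -0.45, and VGLL3 had p under 0.05. Over all 130 genes, 66 were below zero with YO-F2, and 3.85% were lower with p under 0.05. VGLL3, a cofactor of the TEAD factors of the Hippo pathway (ENSBGRG00000000004, chromosome 1, 956005 to 1012265), had 2.18, 0.135 and 2.81 in estrus and 5.80, 3.55 and 5.17 in pregnancy. The stages did not overlap. Anestrus ran from 2.24 to 6.41, which covered all pregnancy libraries but only YO-F3 of estrus. YO-F1 and YO-F2 lay below every anestrus library. VGLL3 had a log2 fold change of -0.91 (interval -1.91 to 0.09, limma, adjusted p = 0.535), and with YO-F2 it was -2.06 (adjusted p = 0.442), which met the standard. VGLL3 also met it without YO-F2 when libraries were scaled by median ratios and with the replicate block (-1.16). GABPA, an ETS factor that activates nuclear genes of mitochondrial function, had 9.96, 8.25 and 8.96 in estrus and 10.9, 10.8 and 11.8 in pregnancy. It did not overlap either, at a log2 fold change of -0.24 (interval -0.66 to 0.19). SYNJ1, a phosphoinositide phosphatase of vesicle recycling, was the remaining gene whose 3 estrus libraries were all lower, with 4.98, 3.67 and 5.50 against 6.63, 7.32 and 6.93 (-0.40, interval -0.94 to 0.14, and -0.57 with YO-F2). Of the ion channels and transporters, GRIK1, a kainate receptor subunit, was barely detected, at 0 to 0.256 over the 6 libraries (0.66, and 0.30 with YO-F2), and SLC9A9, a proton exchanger of endosomes, had 6.21, 2.54 and 4.59 in estrus and 6.23, 4.76 and 5.70 in pregnancy (-0.05, interval -0.79 to 0.69, and -0.40 with YO-F2).

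The 2 tested genes of the ovulation list, ADAMTS1 and NRIP1, were above zero without YO-F2 and below zero with it. ADAMTS1, the protease that cleaves versican in the expanding cumulus and is induced at ovulation (ENSBGRG00000000068, chromosome 1, 28754201 to 28762686), had 259, 11.6 and 132 in estrus and 94.9, 114 and 169 in pregnancy. The estrus group held both the highest and the lowest value. The log2 fold change was 0.60 (interval -0.18 to 1.37) without YO-F2 and -0.73 (interval -2.94 to 1.47) with it. NRIP1, a nuclear receptor corepressor that mice need for ovulation, had 5.22, 2.07 and 7.39 in estrus and 4.99, 4.18 and 8.79 in pregnancy, with a log2 fold change of 0.13 that became -0.39. ADAMTS5, an aggrecanase, had 1.92, 3.24 and 1.87 in estrus and 1.79, 1.61 and 0.741 in pregnancy, where the lowest estrus and the highest pregnancy value nearly met (0.52, interval -0.44 to 1.47, and 0.76 with YO-F2). PCOLCE2, which enhances the processing of procollagen, had 9.19, 14.6 and 16.0 in estrus and 21.6, 15.8 and 18.1 in pregnancy (-0.59, interval -1.35 to 0.17, and -0.50 with YO-F2). None of the 4 tested genes of the extracellular matrix list had p under 0.05.

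Of the 9 tested genes of axon guidance and cell adhesion, 6 were above zero without YO-F2 and 2 with it, and the median moved from 0.23 to -0.20. No member had p under 0.05 in either fit. Over all 130 genes, 74 were above zero without YO-F2 and 64 with it, and the median moved from 0.07 to -0.01. ROBO1, a receptor for SLIT ligands, had 10.6, 1.16 and 17.4 in estrus and 16.3, 9.80 and 13.9 in pregnancy, and ROBO2 had 23.4, 1.35 and 16.5 against 14.9, 12.4 and 25.4. JAM2, a junction protein of endothelium, had 53.9, 7.88 and 50.2 in estrus and 33.1, 57.4 and 44.1 in pregnancy. Their log2 fold changes went from 0.06 to -1.09, from 0.23 to -1.02 and from 0.25 to -0.65 when YO-F2 was included. In these 3 genes YO-F2 was the lowest library by far, and the other estrus libraries lay among the pregnancy libraries or close to them. EPHA3, an ephrin receptor, had 0.361, 0.119 and 0.594 in estrus and 0.193, 0.320 and 0.156 in pregnancy (0.84, interval -0.45 to 2.13). NCAM2 had 1.23, 0.139 and 1.44 against 2.15, 1.04 and 4.79 (-0.70, interval -1.95 to 0.56). YO-F2 alone moved both by over 1.5 times, EPHA3 to 0.38 and NCAM2 to -1.56. The planar polarity gene VANGL2, the one member of the WNT list tested, had a log2 fold change of -0.15 (interval -0.91 to 0.60), or -0.07 with YO-F2.

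**Figure D3:**
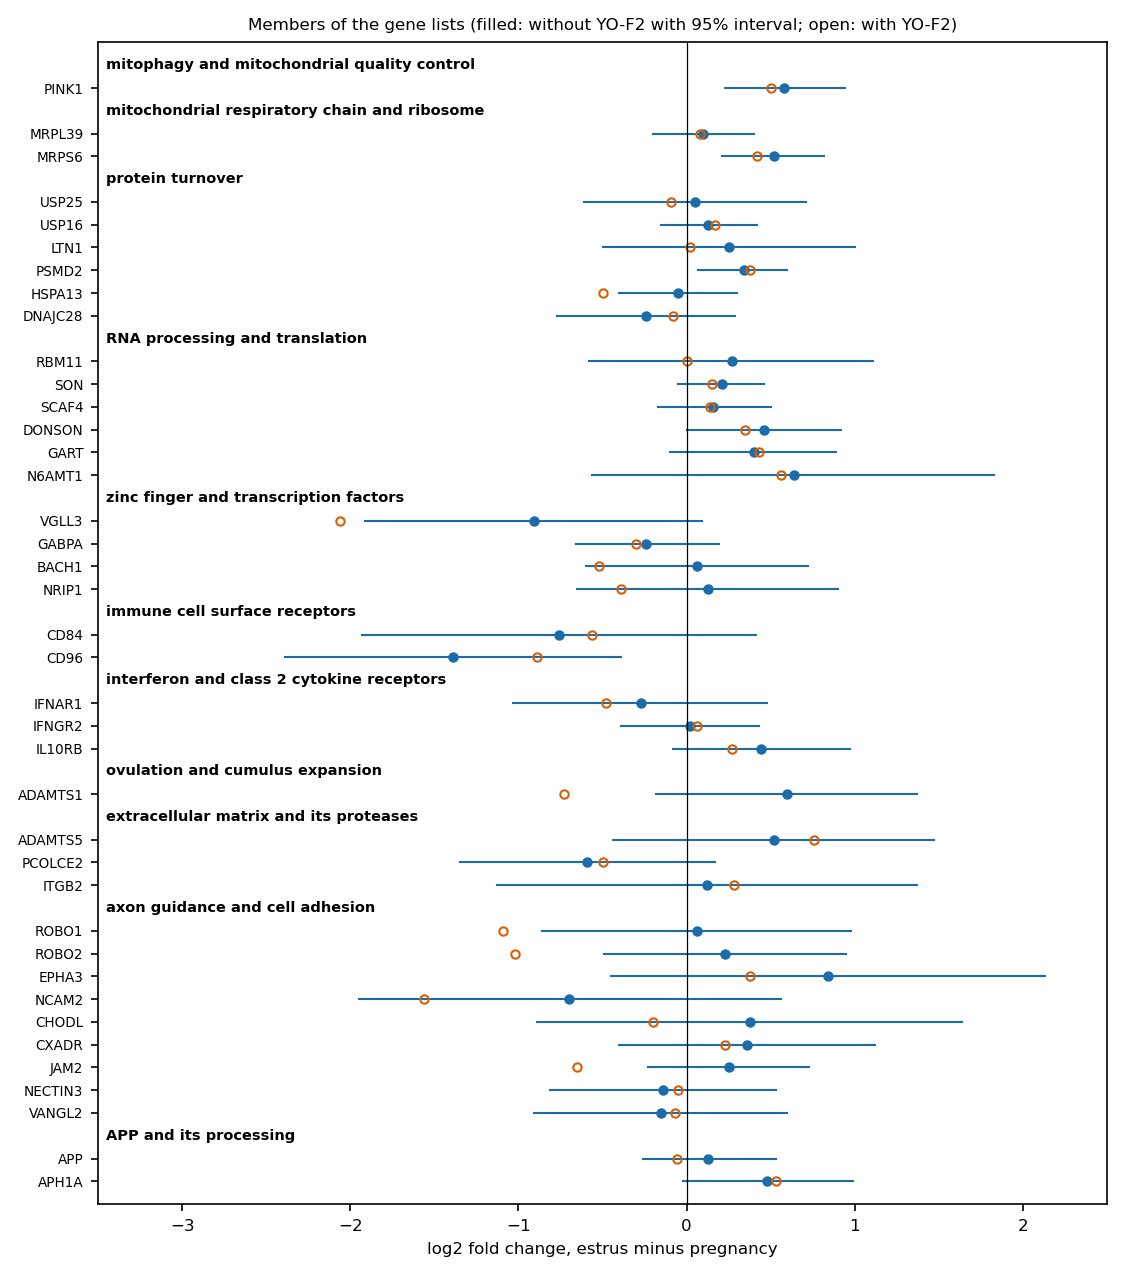
Log2 fold change of estrus minus pregnancy for tested members of 11 gene lists, each gene drawn once under the first list that holds it. Filled points with bars are estimates without YO-F2 and their 95% intervals, and open points are estimates with YO-F2. The intervals of PINK1, MRPS6, PSMD2, DONSON and CD96 end above or below zero, and ADAMTS1, ROBO1, ROBO2 and JAM2 change sides with YO-F2.

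The receptors for interferons and related cytokines, a cluster of genes on chromosome 1, had no member with p under 0.05 among the 3 tested. IFNAR1, a chain of the receptor through which interferon tau of the conceptus acts, had 7.04, 5.78 and 11.4 in estrus, from 10.1 to 11.5 in pregnancy and from 10.6 to 24.6 in anestrus. YO-F3 fell among the pregnancy libraries while the other estrus libraries were lower, and the log2 fold change was -0.27 (interval -1.03 to 0.48), or -0.48 with YO-F2. IFNGR2, a chain of the interferon gamma receptor, had 22.3, 26.0 and 26.0 in estrus and 23.8, 21.3 and 26.4 in pregnancy (0.02, interval -0.39 to 0.43, and 0.06 with YO-F2). A 2-fold difference of IFNGR2 lies outside that interval. IL10RB, shared by the receptors of interleukin 10 and related cytokines, had 10.9, 7.05 and 9.41 in estrus and 8.97, 6.69 and 6.83 in pregnancy (0.44, interval -0.08 to 0.97, and 0.27 with YO-F2).

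APP, the amyloid precursor protein and the most highly expressed of the 173 genes, had 345, 211 and 282 in estrus and 280.3, 319 and 257 in pregnancy. YO-F1 and YO-F2 were the highest and the lowest of these 6 libraries, and the log2 fold change was 0.13 (interval -0.26 to 0.53), or -0.06 with YO-F2. APH1A, a subunit of the gamma-secretase that cuts APP and Notch receptors, had 14.0, 16.4 and 16.0 in estrus and 14.1, 8.60 and 9.99 in pregnancy. The log2 fold change was 0.48 (limma, adjusted p = 0.535), and 0.53 with YO-F2 (adjusted p = 0.348, unadjusted under 0.05). Both remaining genes among the 5 with the highest FPKM overlapped between the stages. ENSBGRG00000000202, described in the table as a heterogeneous nuclear ribonucleoprotein, had 131, 222 and 172 in estrus and 166, 144 and 146 in pregnancy (-0.01), and ENSBGRG00000000060 had 86.6, 126 and 108 against 105, 117 and 90.4 (-0.10). Both turned positive with YO-F2, at 0.18 and 0.03.

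The remaining genes in which all 3 estrus libraries lay above pregnancy had no p under 0.05 without YO-F2, and they were chosen after their values were seen. ENSBGRG00000000078 (chromosome 1, 31453238 to 31466719) had 73.5, 106 and 89.1 in estrus and 69.6, 67.8 and 54.1 in pregnancy. Its log2 fold change was 0.35 without YO-F2 and 0.48 (limma, adjusted p = 0.348) with it. TIAM1, which activates the GTPase Rac, had 0.912, 6.01 and 0.775 in estrus and 0.325, 0.646 and 0.604 in pregnancy, so that its value of 1.53 with YO-F2, against 0.63 without, rested on that library. ENSBGRG00000000172, which lies near PINK1 on chromosome 2 (4744710 to 4768797), had 0.402, 1.09 and 0.853 against 0.357, 0.283 and 0.282 (0.77, interval -0.51 to 2.05). BEND5, a repressor of transcription, had 1.66, 1.39 and 1.47 against 1.24, 1.39 and 1.36, where YO-F2 and YO-P2 agreed to the digits shown (0.22, interval -0.63 to 1.07).

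**Figure D4:**
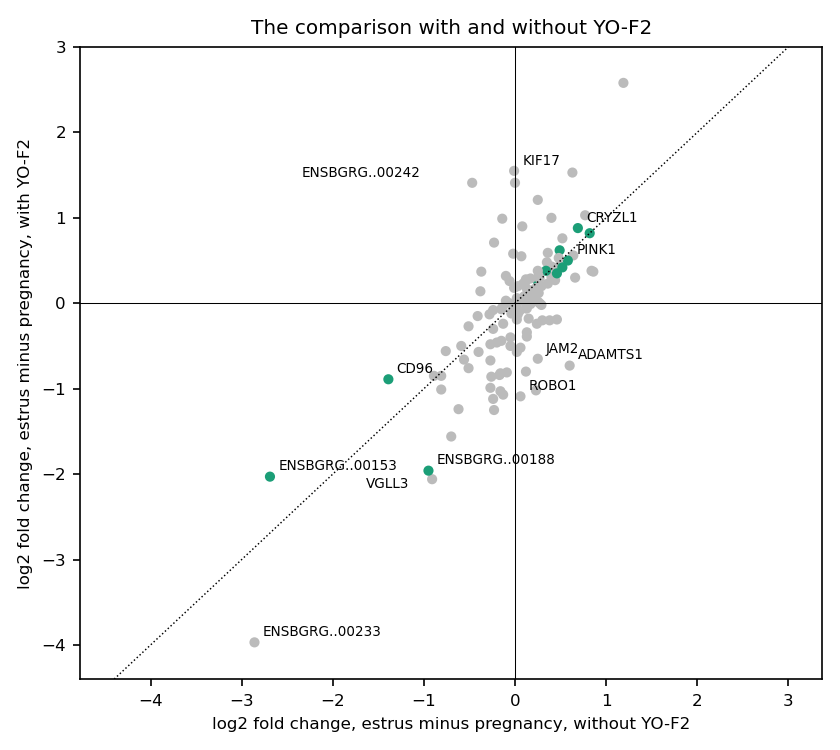
Log2 fold change of estrus minus pregnancy with YO-F2 against that without it, 1 point per gene tested, with ENSBGRG00000000121 not drawn and the dotted line marking equal values. Green points have p under 0.05 without YO-F2. The green points keep their sign, while ADAMTS1, JAM2 and ROBO1 lie above zero without YO-F2 and below zero with it.

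Few genes were listed at 0 in one stage and clearly above 0 in the other. Of the 173 genes, 8 were at 0 in all 6 libraries, 9 in the 3 estrus libraries only and 15 in the 3 pregnancy libraries only. Apart from ENSBGRG00000000121, the genes at 0 in estrus reached at most 0.293 in pregnancy. Among those at 0 in pregnancy, ENSBGRG00000000241 (chromosome 2, 78481195 to 78482673) had 0.422, 3.99 and 0 in estrus, and CLDN8, a tight junction claudin of epithelia, had 1.79 in YO-F2 and 0 in the other estrus libraries. Both were thus seen mainly in YO-F2, and the untested genes reached at most 0.281. ENSBGRG00000000233 (chromosome 4, 17047040 to 17051409) was at 0 in YO-F1 and YO-F2, at 10.2 in YO-F3, at 7.01, 6.74 and 8.04 in pregnancy and at 8.27 to 11.7 in anestrus. A gene at 0 in 2 libraries of a stage and at the common level in the third met the standard with YO-F2 (limma, adjusted p = 0.348), and did not without it (adjusted p = 0.535). An exact 0 in FPKM may be a failed estimate, and nothing further was read from it.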

How the data were processed

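Yak ovary RNA was measured in 9 input libraries, and 9 immunoprecipitated libraries of m6A, the methylated adenosine of RNA, belong to the same series. The authors removed adapters, duplicates and low-quality reads with fastp, aligned with HISAT2 (2.0.4 in the submitters' processing notes) against the genome of Bos grunniens, and used StringTie to obtain the FPKM that they deposited per gene and library. For m6A, the authors deposited the fold enrichment of immunoprecipitation over input as a ratio, in 1 list per stage with annotation by ChIPseeker 1.18.0. The peak caller is not given in the sources used here. The authors' tables of peak differences between stages, with fold changes and p-values, and the anestrus peaks were not used. The study names edgeR for its comparisons, a tool for counts, which an FPKM table does not hold.

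log2(FPKM + 0.1) was fitted, for genes averaging an FPKM of 0.1 or more, with limma 3.58.1 in R 4.3.3 (stage as factor, 8 libraries without YO-F2, moderation with a trend on mean expression). p-values were adjusted by Benjamini-Hochberg over all 130 genes. The fit was tested on simulated data first. Exact permutation tests were two-sided. Python 3.11.15, pandas 2.3.3, numpy 2.4.6, scipy 1.17.1 and matplotlib 3.10.9 were used for the rest. What was analysed here is the opening part of each file, and 1 expression line without values was left out. The 31 gene lists held 759 genes, of which 49 were in the table and 44 were tested. Lists for steroidogenic enzymes, cholesterol synthesis, granulosa, theca, luteal and T cells, oocytes, interferon response, smooth muscle, erythrocytes, immediate-early response, cell cycle and circadian clock had none.

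Named were up to 12 genes per direction with the smallest p among those with p under 0.05 and an average FPKM of 1 or more, all genes meeting the standard of the study, for each list the called members or otherwise 2 with the smallest p, genes the study named for this comparison, and the 5 highest genes. Genes without overlap between stages were added after their values were seen. ROBO1, ROBO2, SON, ITGB2, IFNGR2, ENSBGRG00000000233 and ENSBGRG00000000241 are described although none of these rules named them. They were not followed gene by gene through the alternatives below. The members and lists were chosen with earlier results of these data known. CD96 and ENSBGRG00000000121 are also in the study's own list of genes differing in this comparison, drawn from these samples, so their direction is not independent evidence. Alternatives were other pseudocounts, minimums and scalings, YO-F2 included, a fit of both stages alone, moderation with no trend, a block for replicate number, fold changes from mean FPKM values (with no test of their own), and each library left out.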

Additional observations from a re-analysis of the deposited data

How the results depend on the processing

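The standard of the study was met by 3 genes, by 1 with a pseudocount of 1, by 5 with YO-F2 included and by 5 with median-ratio scaling, and by 3 to 9 when single libraries were left out (9 without YO-F3, 5 without YO-P2). It was met by 2 genes with quantile normalization, so the 2 scalings moved the count in opposite directions. A minimum mean FPKM of 1 gave 2 genes and a pseudocount of 0.01 gave 4. Without YO-F1 or YO-F3, estrus has 1 library, which is assumed to vary like the other groups. By adjusted p, 0 genes passed in limma, and 1 (ENSBGRG00000000121) in a fit of estrus and pregnancy alone (adjusted p = 0.0165). This gene is listed at 0 in both estrus libraries of that fit, so they add no spread. Leaving out single anestrus or pregnancy libraries gave 0 to 1, with ENSBGRG00000000121 without YO-A3 (adjusted p = 0.0109) and ENSBGRG00000000153 without YO-P1 (0.0309). Without YO-F3, estrus was YO-F1 alone, which listed ENSBGRG00000000233 at 0, so no adjusted p is given for that fit. At an unadjusted p under 0.05 there were 12. YO-F2 and the other libraries had a median correlation of 0.800, and of 0.837 or 0.745 with a pseudocount of 1 or 0.01, 0.889 with no minimum and 0.721 with a minimum mean FPKM of 1. Replicate numbers were shared by the stages. Deviations of same-numbered estrus and pregnancy libraries correlated at -0.0167, 0.216 and 0.0112, and 2 of 6 libraries correlated best with their own number. With 3 libraries per stage, these values cannot settle whether the samples were paired. With the replicate block 4 genes met the standard and 0 passed adjustment, and with the block and YO-F2, 6 did.

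For the 43 named genes, 745 of 855 values under alternatives kept direction and side of the 0.05 threshold, 51 lost p under 0.05, 25 gained it and 34 turned sign, 1 of these among the 12 genes with p under 0.05. With YO-F2 included, with or without the block, the log2 fold change became -0.73 for ADAMTS1, -0.39 for NRIP1, -0.06 for APP, 1.55 for KIF17, -0.65 for JAM2, 0.18 for ENSBGRG00000000202 and 0.03 for ENSBGRG00000000060. It became -0.01 for SOD1 with median-ratio scaling, and with quantile normalization -0.03 for ENSBGRG00000000144, -0.01 for SOD1 and MRPL39 and 0.01 for KIF17. NRIP1 was at -0.05 with the block alone. Genes described outside the naming rules are not in these counts, among them ROBO1 (-1.09 with YO-F2) and ROBO2 (-1.02), which also turned sign. When single libraries were left out, genes that turned sign ranged from -0.62 to 0.07 (IFNAR1), -0.01 to 0.28 (APP), -0.10 to 1.41 (GRIK1), -0.42 to 0.41 (KIF17), -0.21 to 0.18 (ENSBGRG00000000202), -0.26 to 0.07 (ENSBGRG00000000060), -0.12 to 0.44 (NRIP1), -0.53 to 0.22 (VANGL2) and -0.26 to 0.17 (SLC9A9). The cause of these turns was not tested. FPKM gives no depth, and genes below an FPKM of 1 have wide intervals.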

Other observations

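The lists of m6A peaks, which are pooled per stage and so allow no test, can be set beside the expression values for plus-strand genes of chromosome 1 up to position 36965772, where the estrus list analysed here ends. This stretch held 18 estrus peaks in 11 genes and 12 pregnancy peaks in 10 genes, and 8 genes had a peak in both lists. VGLL3 had a fold enrichment of 13.8 in estrus and of 17.8 and 4.15 in pregnancy. GABPA had 1.92, 2.37 and 108 in estrus, the last in a peak annotated to the 3' UTR, and 3.57 in pregnancy. USP16 had 3.89 and 5.25. BACH1, a repressor of antioxidant genes, had 4 peaks of 1.70 to 6.54 in estrus and 1 of 8.47 in pregnancy, and EVA1C had 10.4 and 3.95 in estrus and 7.17 in pregnancy. RBM11, CXADR and IFNAR1 were listed with a peak in estrus only within this stretch (3.51, 2.89 and 2.96, the last at its very end), and ENSBGRG00000000024 and ENSBGRG00000000064 in pregnancy only (4.32 and 1.35). The estrus immunoprecipitation includes the library made from the same ovary label as YO-F2.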
